A study of Aspergillus nidulans with 8 samples.

Results

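The aspernidine cluster of Aspergillus nidulans is covered here by 6 genes, AN3225 to AN3230, of the 11127 genes on the array. They were chosen by locus tag, as the polyketide synthase gene AN3230 and the genes next to it that are assigned to the same cluster, a rule that uses no measured value, although earlier results of these data were known when the cluster was chosen. All 6 were found, each with 3 probes, and all 6 entered the tests over 11109 genes. Transcripts were measured in mycelium of stab-inoculated colonies on solid agar, kept in darkness and scraped off whole. The groups were CYAs medium on days 4, 8 and 10, YES medium on days 4 and 10, and CYA medium on days 4, 8 and 10, with 1 array per medium and day and 8 arrays in all. The labels neither spell out the media names nor name the strain, its genotype or its alleles, and YES is written YESs in the titles of its samples. No label says that cultures were replicated, so every p-value here measures only the spread between these arrays that medium and day leave over.

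Aspernidines are prenylated isoindolinone alkaloids of Aspergillus nidulans. A non-reducing polyketide synthase builds the aromatic core of such a compound from acetyl and malonyl units, and tailoring enzymes then modify it and attach a farnesyl chain that comes from the isoprenoid route. In filamentous fungi the genes of such a route usually lie side by side and are transcribed together under particular growth conditions, often late in growth or during development. Production of aspernidine A has been tied to the cell wall integrity route, since a mutant lacking a mitogen-activated protein kinase of that route makes it. The reference table used here gives no name for any of the 6 genes, so no role is given for AN3225 to AN3229.

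Between arrays, the 75th percentile of signal lay between 1483 and 4977, 10878 to 11114 genes were above background on each array, and no spot was saturated. Arrays correlated at 0.8 to 0.956 with each other across genes. On the first principal component, with 49.7% of the variance, CYA day 8 (100.1) and YES day 10 (97.9) stood apart from the day 4 arrays (-76.3 on CYAs, -58.2 on YES and -60.2 on CYA). CYAs day 8 lay between them, at -3.39. For 180 genes whose CYA day 8 signal exceeded those of CYAs day 4 and CYAs day 10 by at least 16-fold, the CYAs day 8 signal was a median of 0.217 of the CYA day 8 signal (quartiles 0.202 and 0.231). Whether this bears on the cluster was not tested, and the values without CYAs day 8 are given beside the fit. The arrays lay on 2 slides. Slide 2 held CYAs on all days and CYA day 10, and slide 1 held the other arrays, so that no YES array shared a slide with a CYAs array.

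All 6 cluster genes had their highest levels on CYAs on days 4 and 8, and lower ones on the other arrays. A level is the log2 of the processed signal minus that of the array's 75th percentile, averaged over the 3 probes of a gene, so that 0 is the 75th percentile of the array. The polyketide synthase gene AN3230 had levels of 2.79, 2.87 and -1.82 on CYAs on days 4, 8 and 10, of -0.61 and -5.54 on YES on days 4 and 10, and of -1.85, -6.07 and -5.85 on CYA on days 4, 8 and 10. Both early CYAs arrays were thus above the 75th percentile of their arrays and the other 6 were below it. CYAs day 10 was below YES day 4 and close to CYA day 4. Averaged over days, AN3230 stood at 1.28 ± 2.69 on CYAs (SD, n = 3), at -3.07 ± 3.49 on YES (SD, n = 2) and at -4.59 ± 2.38 on CYA (SD, n = 3).

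AN3225 had levels of 1.20, 1.13 and -1.98 on CYAs on days 4, 8 and 10, of -1.72 and -6.81 on YES on days 4 and 10, and of -2.96, -6.67 and -5.00 on CYA on days 4, 8 and 10. AN3226 had levels of 3.36, 3.72 and 2.24 on CYAs, of 1.16 and -1.62 on YES, and of 1.35, -2.36 and -0.74 on CYA, on the same days. It was the one gene of the cluster with CYAs day 10 also above the 75th percentile of its array. AN3227 had levels of 0.64, 0.65 and -2.71 on CYAs, of -1.34 and -6.54 on YES, and of -2.75, -7.15 and -7.15 on CYA. AN3228 had levels of 0.56, 0.74 and -2.81 on CYAs, of -2.84 and -7.15 on YES, and of -3.83, -7.12 and -6.45 on CYA. In both, CYAs day 10 was close to a day 4 level of another medium, and YES day 10 close to the late CYA levels. AN3229 had levels of 0.64, 0.52 and -2.10 on CYAs, of -2.29 and -3.72 on YES, and of -2.63, -3.16 and -3.15 on CYA. Its 6 low arrays lay closer together than those of the other 5 genes.

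**Figure D1:**
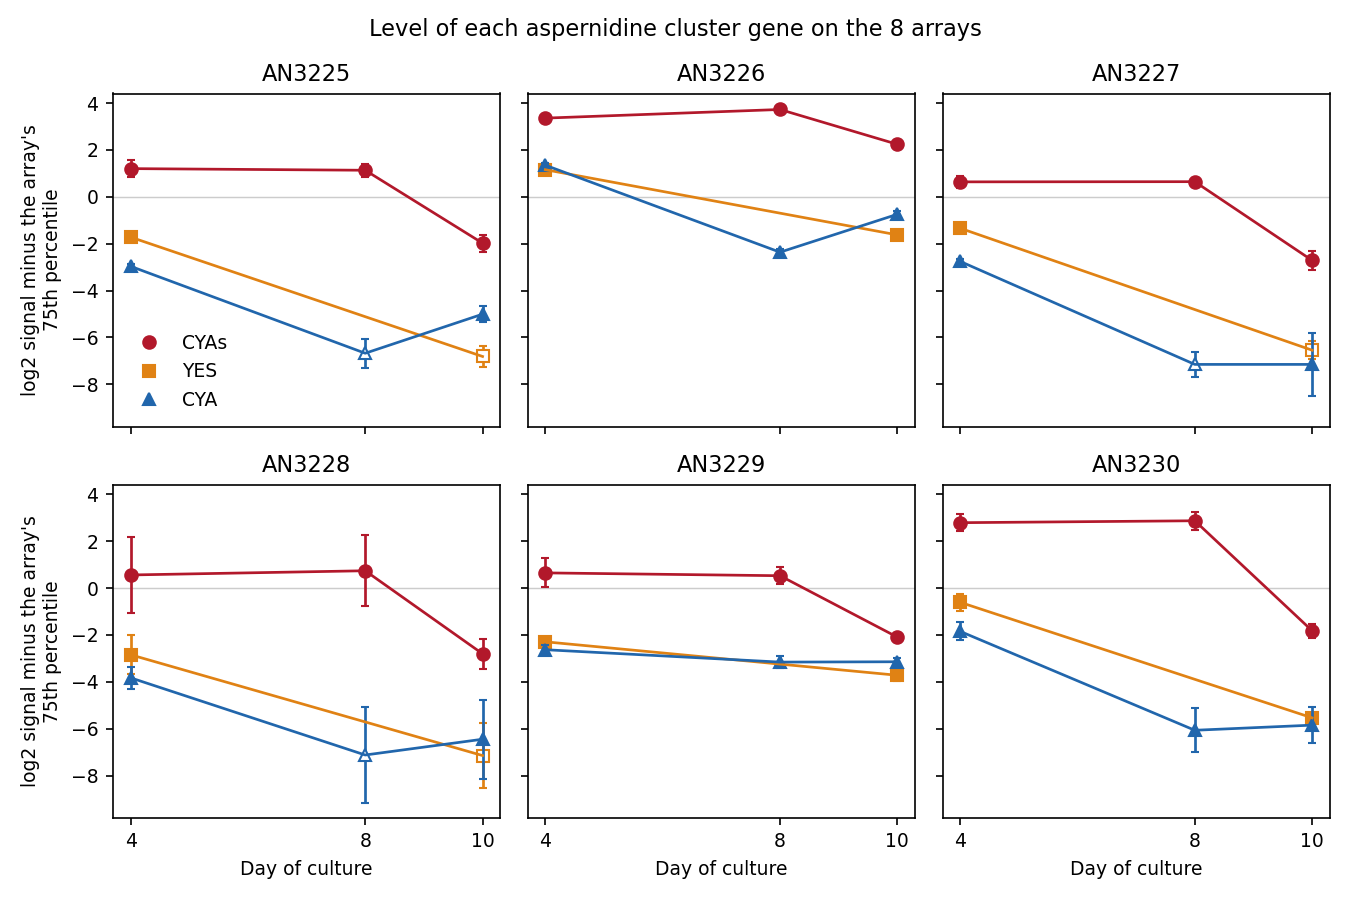
Levels of the 6 cluster genes on the 8 arrays (vertical axes, log2 signal relative to the 75th percentile of the array; horizontal axes, day of culture; 1 line per medium). Error bars are the SD between the 3 probes after removing each probe's own mean, and open symbols mark arrays where not all 3 probes were above background. CYAs days 4 and 8 are the highest points in all 6 panels, and AN3229 has the narrowest span.

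All 3 probes of a gene were above background on most arrays. The exceptions were AN3225 and AN3227 on YES day 10 and CYA day 8, with 2 of 3 probes, and AN3228, with 2 of 3 probes on YES day 10 and 1 of 3 on CYA day 8. The levels of these genes on these arrays are in part upper limits, and a fold change against them is given below as a lower bound. For the bound, each dim probe was set at the higher of its own signal and the lowest signal among probes above background on that array. A fold given as "at least" thus holds only for this floor and this scaling. Other background or scaling steps can give smaller folds.

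The span between the highest and the lowest array was 8.94 log2 units for AN3230, 8.01 for AN3225, 7.88 for AN3228, 7.79 for AN3227, 6.09 for AN3226 and 4.37 for AN3229. The median span over all genes tested was 1.68. A span at least as wide as that of AN3230 was found for 0.468% of genes, and one at least as wide as that of AN3229 for 8.47%. The 6 profiles resembled each other over the 8 arrays, with Pearson r between 0.877 for AN3226 with AN3229 and 0.993 for AN3225 with AN3228. These correlations describe genes that share the same 8 arrays and their scaling.

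Differences between CYAs and CYA were the first comparison, at matched days, with media whose labels differ by 1 letter. On day 4 the 6 genes were higher on CYAs than on CYA by 2.01 to 4.63 log2 units (median 3.78, against -0.02 over all genes). AN3230 was 24.8-fold higher on CYAs, AN3228 20.9-fold and AN3225 17.9-fold. Only 5 genes of the array passed 16-fold higher on CYAs on that day (0.0450% of genes), and these 3 were among them. AN3227 was 10.5-fold, AN3229 9.69-fold and AN3226 4.02-fold higher.

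On day 8 the difference was wider, with a median of 7.80 log2 units over the cluster (7.53 with the bounds) against -0.11 over all genes. AN3230 was 490-fold higher on CYAs than on CYA, and 0.009% of genes had a difference at least as large. Its 3 probes had dim signals of 85.7, 26.4 and 45.5 on CYA day 8, so the size of this fold is uncertain. AN3225 was at least 217-fold, AN3228 at least 215-fold and AN3227 at least 159-fold higher, while AN3226 was 68-fold and AN3229 12.8-fold higher. A difference of at least 16-fold was thus reached by 5 of the 6 genes, against 1.18% of all genes. The bounds hold only for the floor set for dim probes. The 1 probe of AN3228 above background on CYA day 8 differed by 3.92 log2 units. All 6 genes were lower on CYA day 8 than on CYA day 4, while their CYAs levels on these days lay within 0.37 log2 units of each other.

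On day 10, when both arrays were on the same slide, the median was 3.34 log2 units against 0.16 over all genes. AN3227 was 21.6-fold and AN3230 16.3-fold higher on CYAs, and they were the 2 genes of the cluster past 16-fold, against 0.702% of all genes. AN3228 was 12.5-fold higher, AN3225 8.16-fold, AN3226 7.91-fold and AN3229 2.07-fold. On each of the 3 days all 6 genes exceeded their CYA level by at least 2-fold on CYAs, which held for 1.97% of genes. These are differences between single arrays, with no replicate. Their sizes depend on the processing, and AN3227 had signals of only 9.66, 11.3 and 20.1 on CYA day 10. Under 5 other settings of background, scaling or probe averaging, the cluster median ran from 3.31 to 3.94 on day 4. It ran from 5.515 to 7.80 on day 8 and from 2.22 to 3.61 on day 10.

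For all 6 genes every CYAs array lay above every CYA array, a separation found for 5.25% of all genes. It was narrow for 2 genes, because CYAs day 10 was close to CYA day 4. AN3227 had -2.71 on CYAs day 10 against -2.75 on CYA day 4, and AN3230 had -1.82 on CYAs day 10 against -1.85 on CYA day 4.

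In the additive fit of medium and day over 8 arrays (limma, Benjamini-Hochberg adjustment), AN3230 was higher on CYAs than on CYA by 5.86 log2 units (SE 0.99, 95% interval 3.37 to 8.36, adjusted p = 0.36). The estimate was 5.30 for AN3228 (SE 0.87), 5.21 for AN3227 (SE 0.89), 5.00 for AN3225 (SE 1.05), 3.69 for AN3226 (SE 0.82) and 2.67 for AN3229 (SE 0.55). Limma's adjusted p for these 5 genes was between 0.36 and 0.40. No gene of the array was called higher at an adjusted p under 0.05 (0% of genes, smallest adjusted p 0.19), and no gene of the cluster. At an unadjusted p under 0.05, limma placed 582 genes higher on CYAs (5.24%), among them 6 of the 6 cluster genes. The cluster median of 5.10 compares with a median of -0.01 over all genes, and 0.018% of genes had an estimate at least as large as AN3230. The confidence intervals of all 6 excluded 0 in this fit without slide, while the adjusted p-values did not pass.

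Without the CYAs day 8 array the estimates were 4.33 for AN3230, 4.01 for AN3228, 3.91 for AN3227, 3.60 for AN3225, 2.50 for AN3226 and 2.16 for AN3229. Leaving out the CYA day 8 array gave the same values, since either leaves days 4 and 10 to set the difference. With slide as a block, whose effect only CYA day 10 can separate from the medium, AN3230 was higher by 4.23, AN3227 by 4.23, AN3228 by 3.63, AN3226 by 2.81, AN3225 by 2.76 and AN3229 by 1.43. In that fit only AN3227, AN3228 and AN3230 (3 of 6) kept an unadjusted p under 0.05, and the intervals of AN3225, AN3226 and AN3229 included 0. With slide as a random block all 6 kept it.

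**Figure D2:**
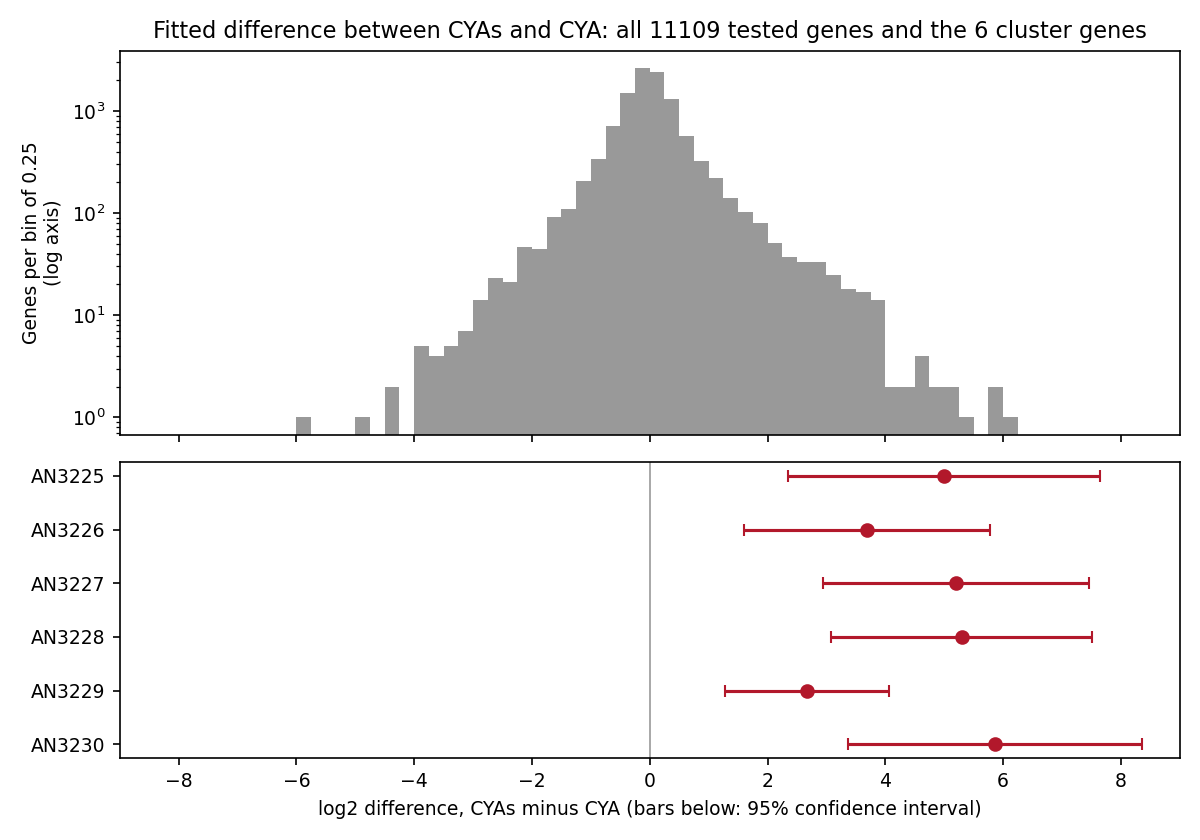
Fitted log2 difference of CYAs minus CYA (shared horizontal axis): number of genes per bin for the 11109 genes tested (upper panel, log axis), and the 6 cluster genes with 95% confidence intervals (lower panel, 1 row per gene). The estimates of the cluster lie in the upper tail of all genes, between 2.67 for AN3229 and 5.86 for AN3230.

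Compared with YES, the cluster was also higher on CYAs on both shared days. On day 4 the differences ran from 1.98 to 3.40 log2 units, with a median of 2.93 against -0.07 over all genes. AN3228 was 10.6-fold, AN3230 10.5-fold, AN3229 7.66-fold, AN3225 7.57-fold, AN3226 4.60-fold and AN3227 3.94-fold higher on CYAs. All 6 were thus at least 2-fold higher, against 5.12% of genes. On day 10 the median was 3.85 (3.81 with the bounds) against 0.22 over all genes. AN3225 was at least 28-fold, AN3228 at least 19.7-fold and AN3227 at least 13.6-fold higher on CYAs, while AN3226 was 14.5-fold, AN3230 13.1-fold and AN3229 3.09-fold higher. Again all 6 were at least 2-fold higher, on a day when 26.6% of all genes were. Under the 5 other settings the median ran from 2.62 to 3.08 on day 4 and from 2.33 to 3.91 on day 10.

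Every CYAs array lay above every YES array for AN3226, AN3228 and AN3229, or 3 of the 6 genes, against 14.3% of all genes. For AN3225, AN3227 and AN3230 the CYAs day 10 level was below that of YES day 4. In the fit, AN3225 was higher on CYAs than on YES by 4.58 log2 units (SE 1.23), AN3228 by 4.51 (SE 1.02), AN3230 by 4.32 (SE 1.16), AN3226 by 3.63 (SE 0.97), AN3227 by 3.55 (SE 1.04) and AN3229 by 2.54 (SE 0.64). Limma's adjusted p was 0.30 for all 6, and 0% of genes were called higher. At an unadjusted p under 0.05, 7.69% of genes were higher on CYAs by limma, among them all 6 of the cluster. With slide as a block the cluster median was 1.73, against 3.98 without it, and with slide as a random block 2.34. In both of these fits 0 of the 6 genes had an unadjusted p under 0.05, and limma's adjusted p was 1 for all 6. Without YES day 10 the count was 2 of 6. Slide and medium cannot be told apart in this comparison except through CYA day 10.

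YES and CYA differed less. On day 4, with both arrays on the same slide, AN3227 was 2.66-fold, AN3225 2.37-fold and AN3230 2.36-fold higher on YES, and these 3 of 6 genes passed 2-fold where 9.09% of all genes did. AN3228 was 1.98-fold and AN3229 1.26-fold higher, and AN3226 had a difference of -0.19 log2 units. On day 10 the median was -0.64 log2 units, against -0.13 over all genes. Only AN3225, with a difference of -1.81 (at least 3.43-fold), was past 2-fold lower on YES, or 1 of 6 against 19.5% of all genes.

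No gene of the cluster had every YES array above every CYA array, where 5.58% of genes did. The fitted difference of YES minus CYA was 1.66 log2 units for AN3227 (95% interval -0.99 to 4.30), 1.54 for AN3230 (-1.39 to 4.47), 0.78 for AN3228 (-1.81 to 3.38), 0.42 for AN3225 (-2.69 to 3.53), 0.13 for AN3229 (-1.50 to 1.77) and 0.06 for AN3226 (-2.39 to 2.51). Limma's adjusted p was between 0.73 and 0.98, and 0% of genes were called higher. At an unadjusted p under 0.05 limma placed 3.24% of genes higher on YES, and 0 of the 6. The intervals are wide, so the fit does not show that the cluster stood at the same level on both media.

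On every medium the 6 genes were lower on day 10 than on day 4, but by different courses. On CYAs the 6 genes held their level between days 4 and 8, with differences of -0.12 to 0.37 log2 units (day 8 minus day 4), and stood lower on day 10. Relative to day 8, AN3230 was lower on day 10 by a difference of -4.69 log2 units (25.9-fold), AN3228 by -3.54, AN3227 by -3.36, AN3225 by -3.11, AN3229 by -2.62 and AN3226 by -1.49. All 6 were thus past 2-fold lower, against 6.33% of genes, and these 3 arrays were on the same slide.

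On CYA the lower levels were already there on day 8. Relative to day 4, AN3230 was 18.6-fold lower on day 8, AN3227 at least 15.1-fold, AN3226 13.1-fold, AN3225 at least 12.7-fold, AN3228 at least 9.07-fold and AN3229 1.44-fold. A drop of at least 2-fold was seen in 5 of 6 genes, against 17.4% of all genes. Relative to day 8, AN3225 was at least 3.08-fold and AN3226 3.07-fold higher on CYA day 10. AN3229 and AN3230 differed by 0.01 and 0.22 log2 units, and AN3227 and AN3228 had probes below background on day 8, so that their measured differences of 0.00 and 0.67 have no firm size. These 2 of 6 genes past 2-fold higher compare with 17.6% of all genes, and the 2 arrays were on different slides.

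On YES, where day 8 was not sampled, AN3227 was lower on day 10 than on day 4 by at least 35.2-fold, AN3225 by at least 33.5-fold, AN3230 by 30.5-fold and AN3228 by at least 19.2-fold. AN3226 was 6.87-fold and AN3229 2.69-fold lower on day 10. A drop of at least 16-fold was thus seen in 4 of 6 genes, against 1.68% of all genes.

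Over all media, the fitted difference of day 10 minus day 4 was -4.51 log2 units for AN3230 (SE 0.99), -4.32 for AN3227 (SE 0.89), -3.44 for AN3225 (SE 1.05), -3.43 for AN3228 (SE 0.87), -2.00 for AN3226 (SE 0.82) and -1.56 for AN3229 (SE 0.55). The median of -3.43 compares with 0.13 over all genes. Limma's adjusted p ran from 0.12 to 0.24 in the cluster, and 0% of genes were called lower (smallest adjusted p 0.11). At an unadjusted p under 0.05 limma placed 8.79% of genes lower on day 10, among them all of the cluster but AN3226 (5 of 6). That count was 3 of 6 without CYAs day 10, without CYA day 4 or without either YES array, and 0 of 6 with day as the only factor. For day 8 minus day 4, 0% of genes were called lower by limma's adjusted p and 5.40% by its unadjusted p, with 0 of the 6 among them. An additive day effect averages the CYAs and CYA courses, which differed on day 8, and the median for that day was -2.02 with both day 8 arrays, -4.03 without CYAs day 8 and 0.03 without CYA day 8. Without CYAs day 8, 5 of the 6 genes had an unadjusted p under 0.05 for that difference.

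The 18 probes of the cluster differed in size but not in direction between CYAs and CYA on days 4, 8 and 10. Of the 18, 14 were above background on all 8 arrays. The probe of AN3230 at bases 6483 to 6542 had processed signals of 40838, 49731 and 849 on CYAs on days 4, 8 and 10, of 2905 and 176 on YES on days 4 and 10, and of 1819, 45.5 and 30.0 on CYA on days 4, 8 and 10. It differed by 10.1 log2 units between CYAs and CYA on day 8, and the other 2 probes of AN3230 by 7.52 and 9.18. AN3226 had the most even probes, with 5.98, 6.10 and 6.19 on that day, and AN3228 the least even.

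The AN3228 probe at bases 73 to 132 had a day 8 difference of 3.92, against at least 8.75 and at least 10.6 for the probes at bases 591 and 841, which were not above background on CYA day 8. Its signal was 898, 1287 and 112 on CYAs on days 4, 8 and 10, against 122, 85.8 and 66.7 on CYA, so that its low arrays stayed above background. In a setting chosen after the data were seen, with only probes above background on all arrays, that one probe is left for AN3228, and its fitted difference of CYAs minus CYA was 2.67 instead of 5.30.

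AN3229 also kept signal on its low arrays. Its probe at base 1599 had signals of 11890, 11827 and 752 on CYAs on days 4, 8 and 10, of 917 and 810 on YES on days 4 and 10, and of 1046, 755 and 477 on CYA on days 4, 8 and 10. The AN3229 probe at base 383 was dimmer, with 67.2 on CYA day 8 and 36.9 on CYA day 10. All 3 probes of AN3229 were above background on all 8 arrays, and their day 8 differences were 2.98, 3.98 and 4.09. Whether other transcripts bind these probes was not tested.

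**Figure D3:**
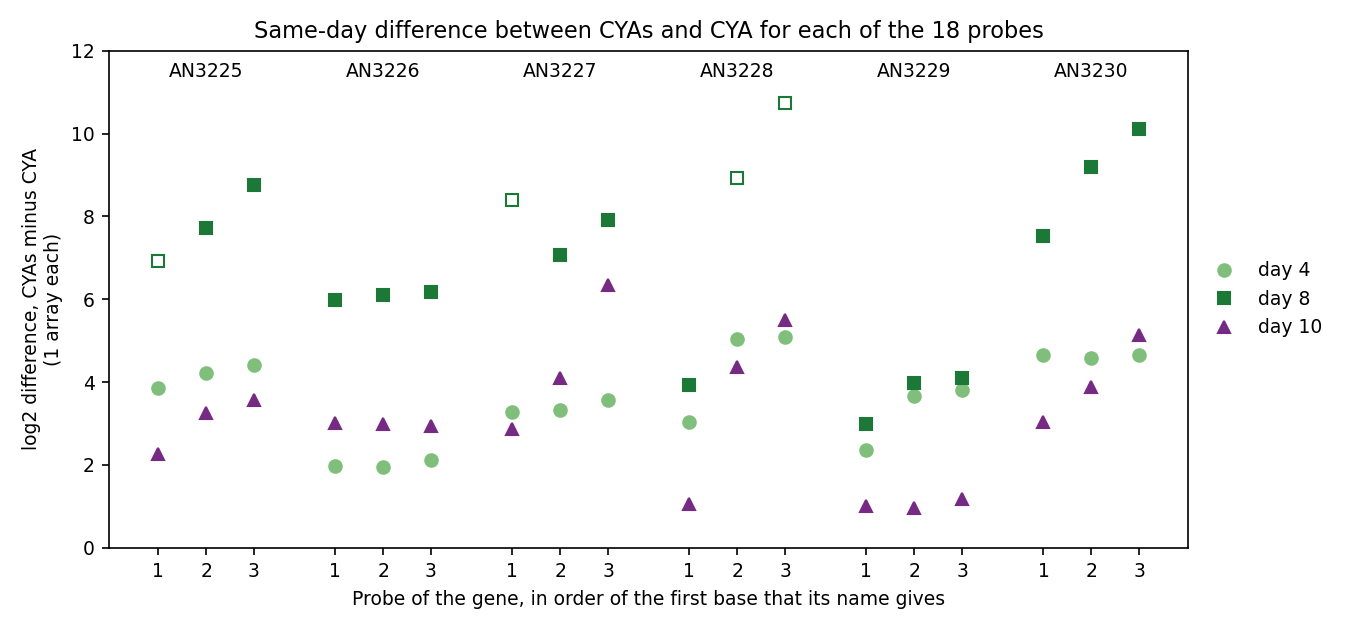
Difference of CYAs minus CYA by probe on days 4, 8 and 10 (vertical axes, log2; horizontal axes, the 3 probes of each gene in the order of the first base in their names). All differences are above 0, and the day 8 values are the highest for most probes. Open symbols mark the 4 probes not above background on CYA day 8, whose differences have no firm size. The first probe of AN3228 stands at 3.92 on day 8, against at least 10.6 for the third.

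The genes next to the cluster on either side differed little between CYAs and CYA. AN3224, the next gene before AN3225, had levels between -2.43 and -1.93 over all 8 arrays, and its fitted difference of CYAs minus CYA was -0.02 (SE 0.25, limma adjusted p = 0.99). AN3231, the next gene after AN3230, had a fitted difference of -0.35 (SE 0.44, adjusted p = 0.92 by limma) and a span of 1.75. The reference table places the 6 genes and their neighbours in the order of their locus tags on 1 chromosome.

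Of the 6 neighbours before the cluster, AN3219 to AN3224, the fitted differences ran from -0.87 for isn1 (AN3222) to 0.37 for AN3219. After the cluster, AN3231, AN3232, AN3233 and AN3235 lay between -0.35 and 0.47. AN3234 had 1.90 (SE 1.08) and AN3236 had 2.80 (SE 1.09), with limma adjusted p of 0.73 and 0.57. In the fit, all 12 neighbours thus had lower estimates than 5 of the cluster genes, and only AN3236 was above AN3229 (2.67). The same-day differences set the cluster apart less clearly. On day 4 every neighbour lay below every cluster gene. On day 8 AN3236 (4.809) was above AN3229 (3.684). On day 10 AN3234 (3.93) and AN3236 (3.872) were above AN3225, AN3226, AN3228 and AN3229, but below AN3227 and AN3230. AN3221 and AN3235 were also above AN3229 on day 10.

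**Figure D4:**
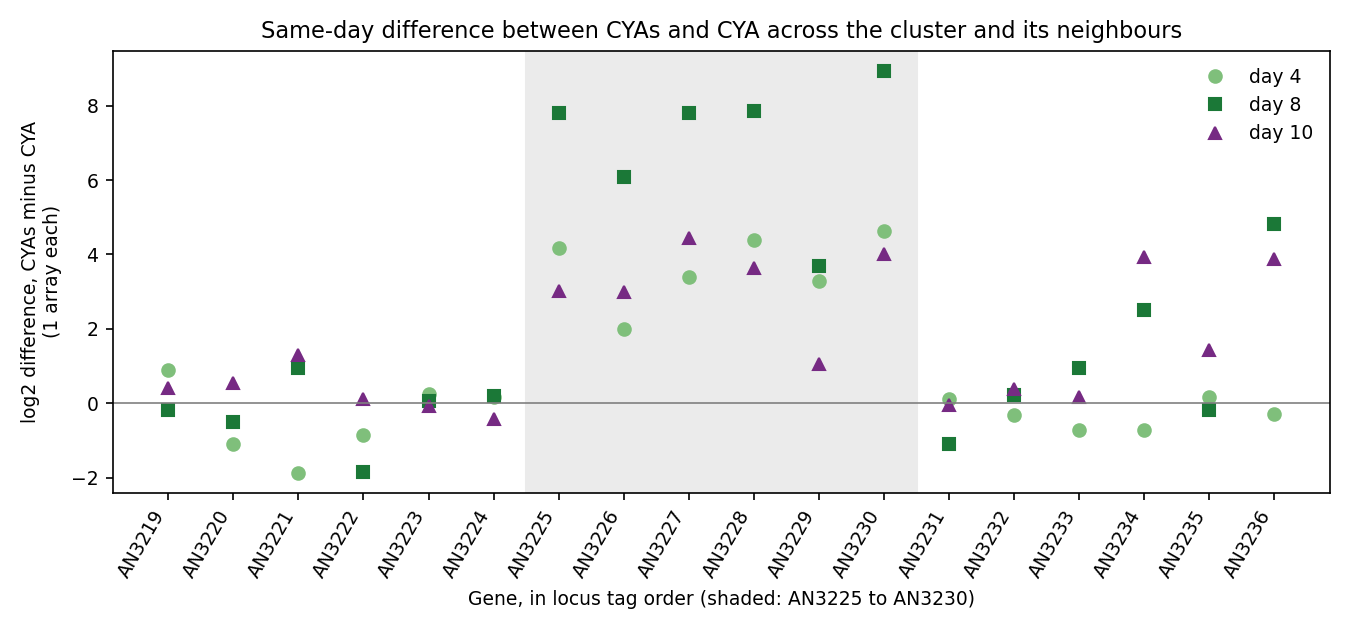
Same-day differences of CYAs minus CYA (vertical axis, log2) for the 6 cluster genes and 6 neighbours on each side in locus tag order (horizontal axis). The 6 cluster genes lie above 1 on all 3 days, AN3224 and AN3231 next to them lie near 0 or below, and AN3234 and AN3236 are high on days 8 and 10 but not on day 4.

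The 10 genes outside the cluster whose profiles were most like the mean profile of the 6 were found among 4515 genes with a span of at least 2 log2 units. The mean profile, each gene centred on its own mean, was 3.67, 3.75 and 0.61 on CYAs on days 4, 8 and 10, 0.87 and -3.09 on YES on days 4 and 10, and 0.03, -3.28 and -2.58 on CYA on days 4, 8 and 10. Over these 8 arrays, Pearson r was 0.975 for AN2388, 0.972 for AN4190, 0.971 for AN6788, 0.968 for eglD (AN1602), 0.967 for AN8368, 0.965 for AN1596, 0.961 for AN2727, 0.954 for AN4363, 0.949 for AN9000 and 0.944 for AN4843. The next gene had 0.944, so the list has no clear end. Of the 10, 8 were also among the 10 most like genes in the authors' deposited table of log2 values, and 4 by Spearman's rank correlation.

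AN6788 had levels of -1.25, -1.38 and -4.21 on CYAs on days 4, 8 and 10, of -3.38 and -5.31 on YES on days 4 and 10, and of -4.28, -6.97 and -5.81 on CYA on days 4, 8 and 10. Its CYAs day 10 level was below that of YES day 4, as in AN3225, AN3227 and AN3230. AN2388, with the highest r, had 4.49, 3.73 and 2.62 on CYAs, 2.47 and -0.19 on YES, and 2.48, -0.75 and 0.53 on CYA. Its fitted difference of CYAs minus CYA was 2.86, below that of each cluster gene but AN3229.

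**Figure D5:**
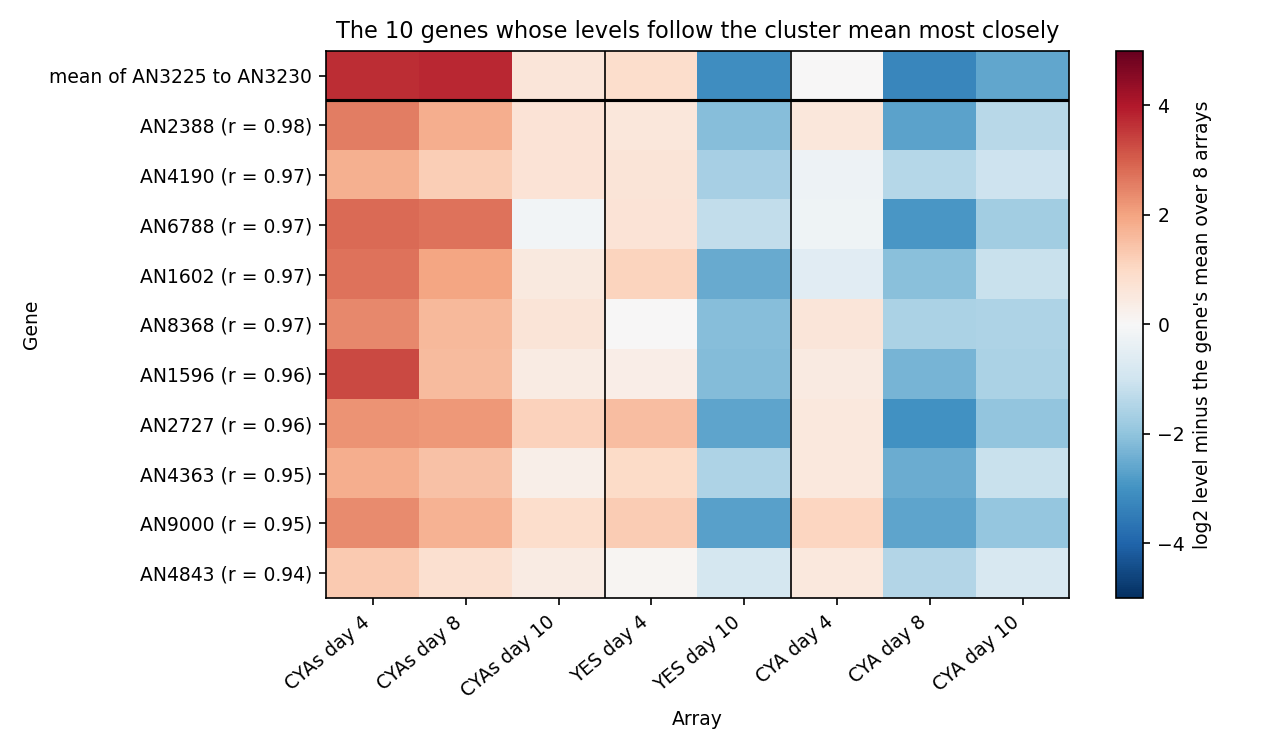
Heat map of log2 levels minus each gene's mean (colour, red above and blue below the mean) on the 8 arrays (columns) for the mean of the 6 cluster genes (top row) and the 10 genes outside the cluster with the highest Pearson r to it (rows; AN1602 is eglD). Of these rows the cluster mean has the widest course, between 3.75 on CYAs day 8 and -3.28 on CYA day 8.

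By a rule chosen after the values were seen, 13 genes had both CYAs day 4 and CYAs day 8 over 2-fold above each of the other 6 arrays (0.117% of genes), and the 6 cluster genes were among them. The others were AN1596, AN2388, AN3961, AN3996, AN6664, AN6788 and AN6789. Under 5 other settings the rule gave 11 to 17 genes, always with all 6 of the cluster.

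Other genes of the surrounding pathways were taken from lists by locus tag, and limma's adjusted p called 0 genes of any list in the 4 contrasts set out here. Among 5 genes of the cell wall integrity route, 3 were higher and 2 lower on CYAs than on CYA, with a median of 0.23 log2 units against -0.01 over all genes. The list holds pkcA, a protein kinase C (-0.18), bck1, a kinase of the mitogen-activated cascade (0.23), the transcription factor gene rlmA (-0.27), AN4189 (0.24) and AN5666 (0.42). Of the 5 genes of the velvet family and laeA, which regulate secondary metabolism and development in this fungus, 3 were higher and 2 lower (median 0.12). The largest estimate was 1.74 for AN2059 (SE 0.41, adjusted p = 0.40 by limma), and laeA had -0.25, veA 0.50, velB -0.18 and vosA 0.12.

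Among 6 genes of precursor supply and synthase activation, 5 were higher and 1 lower on CYAs than on CYA, with a median of 0.43. They include aclA, a subunit of ATP citrate lyase (0.68), hmg1, a reductase of the isoprenoid route (0.41), AN2436 (0.59), AN5626 (0.45), AN6126 (0.00) and AN6140 (-0.29). For day 10 minus day 4 their median was -1.06, with 5 of 6 lower, against 0.13 over all genes, and aclA had -2.28 (SE 0.36, adjusted p = 0.12 by limma). Of 13 other non-reducing polyketide synthase genes, 6 were higher and 7 lower on CYAs than on CYA, with a median of -0.03. The lowest estimate was -3.85 (SE 1.88), and the highest were 3.06 (SE 1.545), 2.84 (SE 0.53) and 2.81 (SE 0.77). These highest values were below that of the synthase gene AN3230 (5.86) but above that of the cluster gene AN3229 (2.67). The gene with 2.84 is also in the list of conidium and conidiophore genes that follows.

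Markers of cell types differed between the same arrays. The summed signal of 8 conidium and conidiophore genes, relative to the 75th percentile of the array, was 44.5, 26.6 and 39.7 on CYAs on days 4, 8 and 10, 42.6 and 1.40 on YES on days 4 and 10, and 9.94, 1.47 and 1.22 on CYA on days 4, 8 and 10. All 8 were higher on CYAs than on CYA in the fit, with a median of 1.67 log2 units. Their estimates were uneven, from 0.335 up to 5.77 and 6.03 for the highest, beside 5.86 for AN3230. Their sum mostly follows the brightest genes, with levels of 4.30, 3.63 and 3.42 on CYAs day 4, where the others had 0.12 or lower. The conidial sum was 39.7 on CYAs day 10 and 42.6 on YES day 4, where the cluster was lower than on CYAs days 4 and 8. It was 1.40, 1.47 and 1.22 on YES day 10, CYA day 8 and CYA day 10, where the mean profile of the cluster was lowest. The part of conidia in the cluster's levels was not tested.

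For 3 genes of fruiting bodies and Hülle cells, the nurse cells of the sexual stage, the sum was 1.57, 42.1 and 13.7 on CYAs on days 4, 8 and 10, 0.997 and 47.4 on YES on days 4 and 10, and 6.84, 152 and 112 on CYA on days 4, 8 and 10. All 3 were lower on CYAs than on CYA in the fit (median -2.38). The estimates were uneven, with -3.38 for AN7349, -2.38 for AN2330 and -0.27 (SE 0.60) for AN7388. On days 8 and 10 AN7388 was higher on CYAs than on CYA, with 2.41 against 1.58 and 2.91 against 2.48. CYAs day 8 is also the array with a median of 0.217 of the CYA day 8 signal over the 180 genes described above. Whether this bears on its sum of 42.1 was not tested. Beside these sums, the mean profile of the cluster was 3.675, 3.75 and 0.615 on CYAs on days 4, 8 and 10. It was 0.87 and -3.086 on YES on days 4 and 10, and 0.032, -3.277 and -2.579 on CYA on days 4, 8 and 10. The 4 genes listed for vegetative hyphae are housekeeping genes, active in other cell types too, so their sum cannot check the labelled mycelium. That sum was 34.4 to 52.1 on CYAs, 30.1 and 44 on YES and 24 to 42 on CYA. No marker of any list had all its probes below background on an array. In RNA from whole colonies, fewer cells of a type and less RNA per cell cannot be told apart, and the part of these cell types in the results was not tested.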

How the data were processed

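Total RNA of 8 colony samples was labelled with Cy3 and hybridised to 1-colour arrays, per the labels. Per the file headers, Agilent Feature Extraction 10.5.1.1 gave the spot intensity values (processed signal, and median signals of spot and background). The authors deposited a table of log2 values per gene, used as an alternative only. The background step behind the processed signal, and both background and normalization steps behind that table, are not given in the sources used. Limma and RMA are named, without a version or a role, in the submitters' processing notes.

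Of 34210 features per array, 32793 were gene probes. Control spots were left out, as were outlier spots, of which an array had 0 to 19. Processed signals were taken to log2 after division by the 75th percentile of their array, and the level of a gene was the mean of its probes, with no pseudocount. A gene was tested where at least 1 probe was above background on at least 2 arrays. This left 11109 genes, and once each probe's own mean was removed, probes of 1 gene differed by a median SD of 0.11. The lmFit and eBayes functions of limma 3.58.1, run in R 4.3.3, fitted additive effects of medium and day to the 8 arrays, with 3 residual and 2.25 prior degrees of freedom, and p-values were adjusted by Benjamini-Hochberg over all genes. An interaction of medium and day could not be tested with 1 array each. Slide was tried as a fixed and as a random block (with statmod 1.5.0). The number of arrays limits the precision. The fit was checked on simulated data.

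Named genes were the 6 members, 6 neighbours on each side, the 10 genes with the highest Pearson r to the mean profile, and members of lists of up to 6 genes. Genes outside these rules are named as such. The cluster and the lists were chosen with earlier results of these data known. The reference table (strain FGSC A4, ASM1142v1) matched 10413 genes and served for symbols and neighbour order. Alternatives were other background correction, scaling, filters, slide, the authors' table, and leaving out each array.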

Additional observations from a re-analysis of the deposited data

Results flagged for a closer look

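With 1 array per medium and day, no medium has enough arrays for a check of single outlying arrays. What drew attention instead were cases where a gene of the cluster moved one way in one setting and the opposite way in another. Each is a pair of differences between single arrays, and none of the differences between the 2 settings was tested.

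Between days 4 and 8 the courses on CYAs and CYA had opposite signs for 4 genes. The log2 difference of day 8 minus day 4 was 0.368 on CYAs against -3.711 on CYA for AN3226, 0.007 on CYAs against -4.395 on CYA for AN3227, 0.18 on CYAs against -3.294 on CYA for AN3228, and 0.082 on CYAs against -4.22 on CYA for AN3230. The CYAs values are all close to 0, so the sign there carries little weight. AN3225 and AN3229 were slightly lower on day 8 on CYAs as well.

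Between days 8 and 10 the signs were opposite for 5 genes. Over all genes the median of this difference on CYA was 0.176. AN3229 (0.014) lay below it and AN3230 (0.219) close to it, so their sign carries little weight. The difference of day 10 minus day 8 was -3.109 on CYAs against 1.667 on CYA for AN3225, -1.486 on CYAs against 1.617 on CYA for AN3226, -3.542 on CYAs against 0.672 on CYA for AN3228, -2.62 on CYAs against 0.014 on CYA for AN3229, and -4.693 on CYAs against 0.219 on CYA for AN3230. On CYA these 2 days were on different slides, and on CYA day 8 not all probes of AN3225, AN3227 and AN3228 were above background, so their values against that array are in part bounds.

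For YES minus CYA, 3 genes had opposite signs on days 10 and 4. The difference was -1.806 on day 10 against 1.244 on day 4 for AN3225, -0.696 on day 10 against 0.984 on day 4 for AN3228, and -0.576 on day 10 against 0.338 on day 4 for AN3229. Not all probes of AN3225 and AN3228 were above background on YES day 10.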

How the results depend on the processing

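No gene of the cluster passed an adjusted p under 0.05 in any setting tried. For CYAs minus CYA, 0 genes were called in all settings, and the cluster median stayed between 3.22 (slide as a block) and 5.91. For CYAs minus YES, where 1 gene was called (AN11979), 0 were called with normexp, the authors' table, only genes with all probes above background, either slide block, medium alone, or days 4 and 10 alone. Leaving out 1 array gave 0 to 155, with 155 (76 higher, 79 lower) without YES day 4. The cluster median of 3.98 became 3.08 with normexp, 1.73 and 2.34 with slide as a block and a random block, 3.29 on days 4 and 10 alone, and 3.19 to 4.86 without 1 array. For YES minus CYA, quantile normalization called 1 gene against 0. For day 10 minus day 4 the median of -3.43 became -2.30 with normexp and -2.00 in the filter that kept 3 of the 6 genes. For day 8 minus day 4, where AN11979 was called, 0 genes were called with quantile normalization, the authors' table, the probe filter, slide as a block or day alone, and 0 to 73 without 1 array (73 without either YES array). Its median of -2.02 ran from -4.03 (without CYAs day 8) to 0.029 (without CYA day 8).

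Signs turned for single genes in 2 comparisons. For YES minus CYA, AN3226 (0.06) became -0.016 with median scaling, -0.54 on days 4 and 10 alone and without either day 8 array, -0.15 without CYAs day 4 and -0.52 without YES day 4, and ran up to 0.71 without 1 array. AN3225 (0.42) became -0.28 on days 4 and 10 alone and without either day 8 array, and -0.82 without YES day 4, and ran up to 1.82. AN3229 (0.13) became -0.029 with medium alone, -0.12 on days 4 and 10 alone and without either day 8 array, -0.03 without CYAs day 10 and -0.14 without CYA day 4, and ran up to 0.91. For day 8 minus day 4, AN3229 (-0.29) became 0.11 with day alone, 0.04 without CYAs day 4 and 0.47 without CYA day 8, where AN3228 (-1.78) became 0.15 and AN3230 (-2.17) 0.13. The lowest values without 1 array were -1.05 for AN3229, -3.70 for AN3228 and -4.48 for AN3230. Fewer arrays or genes enter the settings that leave some out, and otherwise the cause was not tested. Arrays were matched across media only by day, through the day term of the fit. Replicate numbers only name the arrays of a medium in order of deposition and gave no further pairing. Few arrays and dim probes on YES day 10 and CYA day 8 limit the sizes given.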

Other observations

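A pair of genes outside the cluster with adjacent locus tags, AN6788 and AN6789, was among the 13 genes that stood highest on CYAs days 4 and 8. AN6789 had levels of -1.28, -1.42 and -4.94 on CYAs on days 4, 8 and 10, of -3.64 and -5.05 on YES on days 4 and 10, and of -4.45, -5.13 and -5.19 on CYA on days 4, 8 and 10. The smaller of its gaps between these 2 arrays and the other 6 was 2.22 log2 units. The gap of AN6788 was 2.01, and that of AN3230 was 3.40.

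Of the neighbours of the cluster, AN3236 shared part of its course. It had levels of -0.06, 0.01 and -0.07 on CYAs on days 4, 8 and 10, of 0.48 and -3.84 on YES on days 4 and 10, and of 0.24, -4.80 and -3.94 on CYA on days 4, 8 and 10. Unlike the cluster it was not lower on CYAs day 10, and day 4 differed little between media. Its correlation with the mean profile of the 6 genes was 0.852 over 8 arrays. AN3234 was higher on CYAs than on CYA by 2.50 log2 units on day 8 and 3.93 on day 10, and had -0.71 on day 4.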
